A study of Mus musculus with 17 samples.

Results

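Oocytes of 48-week-old mice that had received rapamycin for 40 weeks were compared with oocytes of young mice, to ask which differences from young oocytes were present after the treatment. The comparison takes all 3 rapamycin libraries and both young libraries, 5 of the 17 libraries of the series, and is given with and without the library rapamycin 1. The 2 libraries of untreated 48-week-old mice, called aged here, are shown beside it, and the 10 hippocampus libraries of the series are not analysed here. All mice were wild-type CD1, an outbred stock. Young mice were 4 weeks old and untreated. Aged mice were 48 weeks old and untreated. Rapamycin mice were 48 weeks old and were injected intraperitoneally at 2 mg/kg from week 8 on. Ovulation was induced with PMSG, which drives follicle growth, and after 46 to 48 h with hCG, which triggers ovulation. Young mice received 5 IU of each hormone and 48-week-old mice 10 IU. Against young oocytes, rapamycin, age and the hormone dose therefore cannot be told apart, while aged and rapamycin mice were given the same dose. Metaphase II oocytes, which are held in the second meiotic division until fertilisation, were freed of cumulus cells with 0.1% hyaluronidase, and about 10 of them were pooled for each library. Poly(A) RNA was copied from an oligo-dT primer with template switching, amplified, cut by transposase and sequenced in paired reads. The series' design speaks of 9 oocyte samples and 3 experiments. Of these samples 7 are analysed here, and the labels tie none of them to an experiment or say whether the libraries of a group came from separate animals. P-values therefore speak of the spread among these pools alone, and that spread may be technical.

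Fully grown and ovulated oocytes make almost no new RNA. They live on a store of maternal mRNA built up during growth, and the level of a transcript at metaphase II reflects what was stored and what has since been translated, deadenylated and degraded. Rapamycin binds the small protein FKBP12, encoded by Fkbp1a, and the complex inhibits mTOR complex 1, a kinase assembly that promotes translation and ribosome production and restrains autophagy when nutrients and growth factors are plentiful. In the ovary, mTOR signalling is known for its part in the activation of dormant follicles.

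The 7 oocyte libraries held 3912163 to 8334873 counts in annotated genes and 8688 to 10350 genes with at least 10 counts. Levels are given in CPM, counts relative to the library size (1000000 counts) after scaling by the trimmed mean of M values. A floor of 3 counts, which covers counting error only, lay between 0.349 and 0.809 CPM. Rapamycin 1 stood apart from the other 6 libraries. Across genes, its log2(CPM + 1) values had a correlation of 0.753 to 0.805 with those of any other library, while pairs of the other libraries reached 0.885 to 0.979. The sum of 10 oocyte markers was 4907 CPM in rapamycin 1 and 22673 to 29701 CPM elsewhere, and the zona pellucida gene Zp3 stood at 16.9 CPM against 169 to 285 CPM. In contrast, Dppa3, a maternal effect gene, stood there at 3018 CPM, within the range of the other libraries. The summed level of the wider list of 71 oocyte identity and maternal effect genes was highest in rapamycin 1, at 145890 CPM against 97037 to 119020 CPM, as was that of the list of spindle and checkpoint genes (24941 against 20566 to 24488 CPM). The sum of 14 cumulus and granulosa markers was 173 CPM in rapamycin 1 and 55.1 to 100 CPM elsewhere, and the sum of 6 oviduct markers was 20.7 CPM against 2.53 to 9.19 CPM. The wider list of 31 cumulus and granulosa markers was also highest in rapamycin 1, at 324 CPM against 60.9 to 119 CPM. In contrast, the wider list of 17 oviduct epithelium and stroma markers was lowest there, at 91.7 CPM against 243 to 635 CPM. All 4 globin genes were at 0 in every library, and Pax8, a marker of oviduct epithelium, was also at 0. The part of these differences in the results was not tested. In pooled oocytes, fewer transcripts per cell and fewer intact cells of a type cannot be told apart.

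With all libraries, edgeR called a small set of genes with large changes between oocytes after rapamycin and young oocytes. Pnpla3, which encodes a lipase and acyltransferase of lipid droplets, the splicing factor gene Cdc5l and the mitochondrial fission regulator gene Mtfr2 were among those that rose. Arid5b, which encodes a DNA-binding chromatin factor, Dph6, an enzyme gene for the diphthamide residue of elongation factor 2, and Tox3, an HMG-box gene, were among those that fell. Of 10083 genes tested, edgeR called 43 at an adjusted p under 0.05 (0.426%), 21 higher (0.208%) and 22 lower (0.218%), and 898 had an unadjusted p under 0.05, where 504 would be expected by chance. All 43 were among the 243 genes called by DESeq2 (2.41%) and were called in the edgeR fit without rapamycin 1. The 3 rapamycin and 2 young libraries did not overlap for any of the 43, which was the case for 33.4% of all genes tested. The fitted change was over 8-fold for 42 of them and over 32-fold for 28. In simulated counts with the spread of this fit, edgeR called 1 of 50 changes of 2-fold, 15 of 50 of 4-fold and 47 of 50 of 8-fold. A further 8 unchanged genes were called. The changed genes were drawn from those averaging over 3 log2 CPM, and all libraries were given the same spread, unlike the real ones. The simulation therefore does not cover lower genes. Smaller changes could largely go uncalled. Excluding 8 genes that have only a clone, model or locus name leaves 35, which are described in turn.

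The promoters of 3 genes of this set, and of Arid5b as a counterexample, are shown because the first 3 share a complete cyclic AMP response element, the octamer TGACGTCA, which is its own reverse complement and was therefore searched once. Sequences are from RefSeq on GRCm38.p6 and run from 250 bases before to 50 bases after the first listed transcript start, with the octamer in capitals. Inpp4a has 3 listed starts, and the first is shown.
Pnpla3 (chr15:84167566-84167865, plus strand): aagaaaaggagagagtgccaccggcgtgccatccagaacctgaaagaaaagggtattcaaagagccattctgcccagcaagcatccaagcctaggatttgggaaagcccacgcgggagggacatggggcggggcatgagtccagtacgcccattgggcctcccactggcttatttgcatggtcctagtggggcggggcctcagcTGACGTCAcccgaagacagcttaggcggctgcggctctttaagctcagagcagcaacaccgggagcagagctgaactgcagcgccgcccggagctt
Cdc5l (chr17:45433658-45433957, minus strand): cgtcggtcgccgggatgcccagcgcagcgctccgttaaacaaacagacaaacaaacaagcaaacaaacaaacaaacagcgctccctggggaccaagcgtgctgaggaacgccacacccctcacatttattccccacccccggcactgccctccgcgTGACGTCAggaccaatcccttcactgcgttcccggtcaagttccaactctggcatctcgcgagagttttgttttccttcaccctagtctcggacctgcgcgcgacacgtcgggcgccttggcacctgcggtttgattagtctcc
Inpp4a (chr1:37299588-37299887, plus strand): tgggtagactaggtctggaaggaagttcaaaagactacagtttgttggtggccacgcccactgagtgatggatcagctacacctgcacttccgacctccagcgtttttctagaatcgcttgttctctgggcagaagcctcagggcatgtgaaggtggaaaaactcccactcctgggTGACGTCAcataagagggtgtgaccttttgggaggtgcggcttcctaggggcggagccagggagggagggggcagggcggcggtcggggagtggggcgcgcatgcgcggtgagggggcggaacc
Arid5b (chr10:68278677-68278976, minus strand): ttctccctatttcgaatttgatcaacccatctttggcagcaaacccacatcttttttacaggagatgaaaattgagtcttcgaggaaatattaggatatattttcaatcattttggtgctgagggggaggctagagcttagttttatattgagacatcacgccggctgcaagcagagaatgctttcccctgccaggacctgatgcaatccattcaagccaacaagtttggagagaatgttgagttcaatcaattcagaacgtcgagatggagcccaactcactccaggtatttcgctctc
Of the 43 genes, 32 have a promoter in the table, and 3 of these (9.38%) hold the octamer, against 3.51% of the 8015 promoters of tested genes and 1.88% of all 27025 promoters. The share in the 32 thus rests on 3 promoters. In the larger sets called without rapamycin 1 it was near that of tested genes. There 4 of 102 promoters of genes called higher (3.92%) and 5 of 113 of genes called lower (4.42%) held the octamer. Pnpla3 and Cdc5l rose whereas Inpp4a fell, so the octamer was found in genes of both directions. Of the other motifs searched on both strands, the E-box CANNTG was in 65.6% of the 32 and 63.7% of the tested promoters, the TATA box TATAAA in 9.38% and 6.95%, and the NOBOX element TAATTG in 3.12% and 5.15%. A match describes the letters in this window and is no evidence that a factor binds there.

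Pnpla3 (GRCm38, chromosome 15, 84167837 to 84187236, protein-coding) had 1.31 and 1.86 CPM in young 1 and 2, 465, 963 and 1222 CPM in rapamycin 1, 2 and 3, and 1546 and 1385 CPM in aged 1 and 2. All 5 libraries of 48-week-old mice lay far above both young ones, and rapamycin 1 was the lowest of the 5. The log2 fold change of Pnpla3 against young was 9.08 ± 0.68 (SE; edgeR adjusted p = 0.00325) with all libraries and 9.37 ± 0.31 (95% interval 8.67 to 10.08; edgeR adjusted p = 7.09e-07) without rapamycin 1. Cdc5l (chromosome 17, 45391884 to 45433737, protein-coding), a subunit of the Prp19 complex of the spliceosome, had 1.74 and 4.77 CPM in young, 291, 338 and 241 CPM in rapamycin and 151 and 223 CPM in aged libraries. Here the rapamycin libraries were all above the aged ones as well. Cdc5l rose against young by 6.43 ± 0.61 on the log2 scale (edgeR adjusted p = 0.00714), while its difference from aged, 0.63 ± 0.45, was not called.

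Other genes that rose belong to the cell surface, the matrix, the nucleolus and metabolism. Pxdn (chromosome 12, 29937608 to 30017658), an extracellular peroxidase that crosslinks collagen IV, had 0.654 and 0.116 CPM in young, 17.5, 44.7 and 57.3 CPM in rapamycin and 118 and 60.9 CPM in aged libraries. Chl1, an adhesion molecule of the L1 family, had 0.218 and 0 CPM in young, 11.3, 23.8 and 16.6 CPM in rapamycin and 32.6 and 38.4 CPM in aged libraries. For both genes the rapamycin libraries lay between the young and the aged ones without overlap. Pxdn rose by 6.83 ± 0.95 on the log2 scale (edgeR adjusted p = 0.0317), and Chl1, with 1 count in young, was 241-fold higher (counting interval 42.9 to 9546; edgeR adjusted p = 0.0215). Against aged oocytes Pxdn stood at -1.16 ± 0.61 and Chl1 at -1.04 ± 0.54, neither of them called. Pknox2, a homeodomain gene, had 0 counts in both young libraries, 8.60, 7.74 and 6.33 CPM in rapamycin and 8.36 and 18.2 CPM in aged libraries, and was at least 32.4-fold higher after rapamycin than in young oocytes, taking 3 counts over the young group as the floor (edgeR adjusted p = 0.0336). Its rapamycin and aged libraries overlapped.

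Rrs1, which acts in assembly of the large ribosomal subunit, had 0.872 and 0.465 CPM in young, 108, 23.1 and 29.2 CPM in rapamycin and 36.9 and 27.4 CPM in aged libraries. Rapamycin 1 was the highest of all 7, and the other rapamycin libraries were close to the aged ones. The gene rose by 6.34 ± 0.98 with all libraries (edgeR adjusted p = 0.0488) and by 5.36 ± 0.48 without rapamycin 1 (edgeR adjusted p = 3.96e-04). Pnp2, a purine nucleoside phosphorylase gene with a close paralogue from which its reads may not be separated, had 0.436 and 0.233 CPM in young, 32.0, 10.3 and 14.2 CPM in rapamycin and 10.5 and 17.5 CPM in aged libraries, and rose by 5.80 ± 0.85 (edgeR adjusted p = 0.0402). Gsto2, a glutathione transferase that also reduces dehydroascorbate, had 0.218 and 0.116 CPM in young, 12.6, 4.47 and 14.9 CPM in rapamycin and 8.63 and 6.74 CPM in aged libraries. With 2 counts in young it was 68.0-fold higher (counting interval 18.5 to 566; edgeR adjusted p = 0.0488). In Pnp2 and Gsto2 the rapamycin libraries spanned the aged ones.

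Among the genes that fell, several were at or near the floor in every library of 48-week-old mice. Tox3 had 98.3 and 100 CPM in young, 0, 0 and 0.151 CPM in rapamycin and 0.809 and 0.674 CPM in aged libraries. It had 1 count over the 3 rapamycin libraries and was 1699-fold lower there than in young oocytes, with a counting interval of 304 to 67160 (edgeR adjusted p = 0.00250). Defb8, a beta-defensin gene, had 27.7 and 18.7 CPM in young oocytes and 0 counts in all 5 other libraries, and was at least 124-fold lower after rapamycin (edgeR adjusted p = 0.0434). Kcnk18, the background potassium channel TRESK, had 45.8 and 41.5 CPM in young, 0, 0 and 0.151 CPM in rapamycin and 0 and 0.225 CPM in aged libraries, a 734-fold lower level after rapamycin (131 to 29053; edgeR adjusted p = 0.00714). In all 3 genes every other library lay below the young ones. The rapamycin and aged libraries overlapped for Kcnk18, whereas for Tox3 the aged libraries, at or near the floor, lay above all rapamycin ones.

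Ccdc85a had 28.3 and 19.2 CPM in young, 0, 0 and 0.151 CPM in rapamycin and 0 CPM in both aged libraries, and was 382-fold lower after rapamycin (68.0 to 15140; edgeR adjusted p = 0.0182). Sh3rf2, which encodes a protein with SH3 and RING domains, had 11.6 and 13.3 CPM in young, 0, 0.149 and 0.151 CPM in rapamycin and 0.270 and 0 CPM in aged libraries, 108-fold lower (29.5 to 900.3; edgeR adjusted p = 0.0296). Both stood at or below the floor in all 5 libraries of 48-week-old mice.

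Arid5b (chromosome 10, 68092520 to 68278740, protein-coding) was abundant in young oocytes, at 491 and 417 CPM, and had 8.06, 5.21 and 6.48 CPM in rapamycin and 6.47 and 2.70 CPM in aged libraries. It was still detected in all of them above the floor, with rapamycin and aged libraries overlapping. The log2 fold change against young was -6.11 ± 0.48 with all libraries (edgeR adjusted p = 0.00395) and -6.26 ± 0.38 without rapamycin 1 (edgeR adjusted p = 3.64e-05). Ddr2, a receptor tyrosine kinase activated by collagen, had 28.3 and 28.9 CPM in young, 0.269, 0.744 and 0.452 CPM in rapamycin and 1.08 and 0.899 CPM in aged libraries, and fell by 5.74 ± 0.54 (edgeR adjusted p = 0.00714). For Ddr2 the rapamycin libraries lay just below the aged ones. Smkr-ps, annotated as a lincRNA, had 17.7 and 18.4 CPM in young, 0.538, 0.298 and 0.151 CPM in rapamycin and 0.270 and 0.674 CPM in aged libraries, and fell by 5.79 ± 0.66 (edgeR adjusted p = 0.0156).

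**Figure D1:**
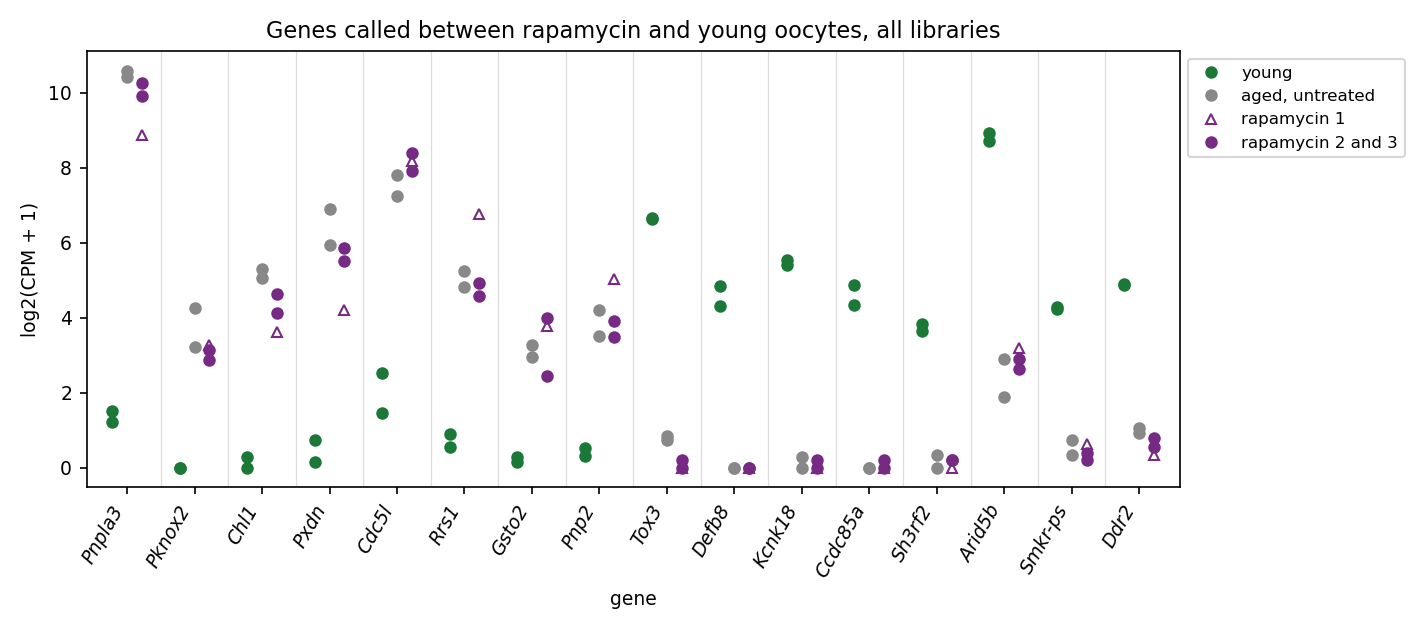
Levels of 16 genes called with all libraries, as log2(CPM + 1) on the vertical axis, for each gene on the horizontal axis, with 1 point per library (young, aged, rapamycin 1 as open triangles, rapamycin 2 and 3 as filled points). They are the 8 largest rises and 8 largest falls with a standard symbol, a mean of at least 2 log2 CPM and no overlap between groups. By this rule both young points lie below all rapamycin points in the left 8 genes and above them in the right 8. The aged points lie near the rapamycin ones, as for Arid5b with 6.47 and 2.70 CPM in aged and 5.21 to 8.06 CPM in rapamycin libraries.

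A further 19 of the 35 genes are given by their log2 fold change against young with all libraries, each past the edgeR threshold. Of the 9 that rose, Mtfr2 (chromosome 10, 20347770 to 20361304) had 22.0 and 29.1 CPM in young and 912, 798 and 788 CPM in rapamycin libraries and changed by 5.02 ± 0.45. It was close to the higher of the aged libraries, which had 760 and 428 CPM. Agbl2, which trims glutamate from tubulin tails, rose by 5.42 ± 0.63, Otogl by 4.92 ± 0.76, the germ cell RNA-binding gene Rbm44 by 4.70 ± 0.65, Ccdc38 by 4.26 ± 0.50, Lrrc31 by 3.70 ± 0.49 and Hif3a, a hypoxia-inducible factor subunit, by 3.30 ± 0.51. Ugcg, the glucosylceramide synthase gene, rose from 22.0 and 20.5 CPM in young to 190, 305 and 253 CPM in rapamycin libraries, a change of 3.55 ± 0.41. Itgb1bp1, which encodes an integrin tail-binding protein, rose by 3.59 ± 0.49, from 30.3 and 34.7 CPM to 603, 296 and 280 CPM, with rapamycin 1 the highest.

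Of the 10 that fell, Dph6 (chromosome 2, 114516416 to 114654964) had 468 and 380 CPM in young, 9.14, 11.2 and 11.6 CPM in rapamycin and 10.8 and 11.9 CPM in aged libraries. Its log2 fold change against young was -5.31 ± 0.36 (edgeR adjusted p = 0.00250), and rapamycin stood at -0.09 ± 0.34 from aged. Gulp1, an engulfment adaptor gene, had 1 count over the rapamycin libraries and was 166-fold lower (29.2 to 6598). The others were Cdc42ep3, an effector of the GTPase Cdc42 (-4.90 ± 0.74), Arntl2, a paralogue of the clock gene Bmal1 (-4.83 ± 0.48), the zinc finger gene Zfp708 (-4.50 ± 0.50) and Inpp4a, a phosphoinositide phosphatase gene (-4.42 ± 0.51). Exoc2, an exocyst subunit gene (-3.62 ± 0.48), the scaffold gene Homer2 (-3.54 ± 0.49), the fucosyltransferase gene Fut10 (-3.24 ± 0.42) and Rpe, an enzyme gene of the pentose phosphate pathway (-2.41 ± 0.35), also fell. Rpe overlaps Kansl1l, which lies on the other strand and rose by 1.84 without rapamycin 1, and reads of overlapping genes may not have been told apart.

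Against aged oocytes, measured in the same edgeR fit, the 43 genes had a median log2 difference of -0.10 (range -6.70 to 1.82), with 38 within 1 log2 unit of zero. The share of all genes within that distance was not computed. None of the 43 was called between rapamycin and aged oocytes, and 2 had an unadjusted p under 0.05. The precision of these differences was low, with a median 95% interval of ± 1.22 log2 units, and for 2 genes alone did the whole interval lie within 1 log2 unit. Over all 10083 genes edgeR called 0 between rapamycin and aged oocytes, 603 had an unadjusted p under 0.05 and DESeq2 called 11. The aged comparison with young rests on the same young libraries, so its values are set beside those of rapamycin gene by gene and not counted as a second line of evidence.

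When rapamycin 1 was left out, the biological coefficient of variation fell from 49.5% to 28.1% and more genes with moderate changes were called. Of 10220 genes tested, edgeR called 304 between rapamycin 2 and 3 and the young libraries (2.97%), 148 higher (1.45%) and 156 lower (1.53%), and DESeq2 called 520 (5.09%). In edgeR 1622 of the 10220 had an unadjusted p under 0.05. The median log2 fold change was 2.46 among those called higher and -2.56 among those called lower. Rapamycin 1, which had no part in these calls, lay beyond both young libraries on the same side for 123 of the 148 and 140 of the 156. It lay between the young libraries for 8 and 6, and on the opposite side for 17 and 10. Over all genes of that fit, the 3 rapamycin libraries lay above both young ones for 15.2% and below for 18%. That share asks for all 3 libraries at once, and the share for rapamycin 1 alone was not computed. Both young libraries took part in the calls, so the side on which rapamycin 1 lay is no independent support for them.

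**Figure D2:**
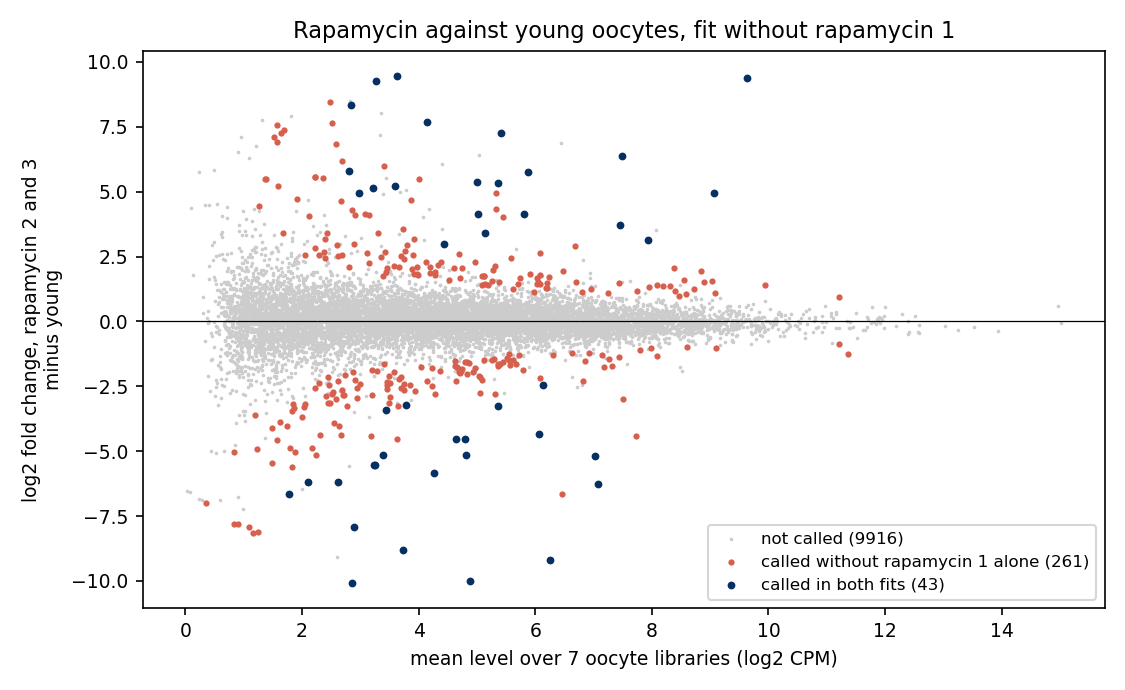
Fitted log2 fold change of rapamycin 2 and 3 against young (vertical axis) for each of 10220 genes against its mean level in log2 CPM (horizontal axis), with 304 called genes coloured and the 43 that were also called with all libraries in dark blue. Called genes lie on both sides of zero, 148 above and 156 below, and fitted values of genes with 0 to 3 counts in a group depend on the prior count.

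Genes that rose without rapamycin 1, beyond those described, included signalling, redox and transport genes. Folds against low young counts are over rapamycin 2 and 3, as in that fit. Adcy2, an adenylyl cyclase gene, had 0 counts in young, 3.23, 6.25 and 8.74 CPM in rapamycin and 8.36 and 10.8 CPM in aged libraries, at least 32.9-fold higher after rapamycin than in young oocytes (edgeR adjusted p = 0.00323 without rapamycin 1 and 0.0552 with it). Nox4, an NADPH oxidase gene whose product makes hydrogen peroxide, had 0 counts in young, 0.269, 7.15 and 1.51 CPM in rapamycin and 14.8 and 16.2 CPM in aged libraries, at least 19.1-fold higher (edgeR adjusted p = 0.0268 without rapamycin 1). The rapamycin libraries of Nox4 were spread widely, all below the aged ones, and rapamycin 1 was under the floor. Slc22a22, a transporter gene, had 0.218 and 0 CPM in young, 8.60, 9.97 and 4.22 CPM in rapamycin and 11.9 and 9.66 CPM in aged libraries (93.8-fold higher than young, 16.4 to 3743), and Acsl6, an acyl-CoA synthetase gene for long-chain fatty acids, was 62.2-fold higher (10.8 to 2495).

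Chst9, which encodes a sulfotransferase acting on carbohydrates, had 0 and 0.233 CPM in young, 0.809 and 0 CPM in aged and 13.7, 8.93 and 6.93 CPM in rapamycin libraries. All 3 rapamycin libraries, rapamycin 1 included, were above both young libraries, which the naming rule required, and also above both aged ones. In rapamycin 2 and 3 it was 52.3-fold higher than in young oocytes (14.1 to 438; edgeR adjusted p = 0.0222 without rapamycin 1 and 0.150 with it). Its difference from aged oocytes was not called (edgeR adjusted p = 0.226 without rapamycin 1).

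The remaining rises named by the rule were uneven between rapamycin libraries. Stk32a, a serine/threonine kinase gene, had 0.218 and 1.28 CPM in young and 2.96, 63.3 and 15.7 CPM in rapamycin libraries, and rose by 5.50 ± 0.80 without rapamycin 1. Tex19.2, a germline gene, had 1.53 and 0.465 CPM in young and 147, 9.08 and 46.4 CPM in rapamycin libraries, and rose by 4.95 ± 0.85. The septin gene Sept3 had 0.218 and 2.09 CPM in young and 112, 20.8 and 33.3 CPM in rapamycin libraries, and rose by 4.34 ± 0.60. In these genes the rapamycin libraries differed among themselves by several fold. All lay above both young ones, which the rule for naming these genes required. With 1 count each in young oocytes, Zfp619 was 30.6-fold higher (5.10 to 1247) and AI429214 58.2-fold higher (10.1 to 2339) in rapamycin 2 and 3. With rapamycin 1 included these ratios were 86.5 (15.2 to 3446) and 88.8 (15.6 to 3538).

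Among falls without rapamycin 1, Tktl2, a transketolase-like gene (chromosome 8, 66511756 to 66518335), was also called against aged oocytes. It had 17.7 and 18.0 CPM in young, 14.6 and 18.0 CPM in aged, 0.744 and 0.753 CPM in rapamycin 2 and 3, and 15.9 CPM in rapamycin 1. Rapamycin 2 and 3 thus lay below young and aged libraries alike, while rapamycin 1 lay within the range of the aged ones. The log2 fold change against young was -4.52 ± 0.45 without rapamycin 1 (edgeR adjusted p = 7.80e-04) and -1.68 ± 1.15 with it, where it was not called (edgeR adjusted p = 0.682).

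Cast, which encodes the calpain inhibitor calpastatin, had 24.0 and 25.4 CPM in young, 4.57, 1.49 and 0.753 CPM in rapamycin and 1.35 and 1.57 CPM in aged libraries, and fell by 4.42 ± 0.47 without rapamycin 1 (edgeR adjusted p = 0.00122). Micu3, a regulator of mitochondrial calcium uptake, had 16.8 and 16.1 CPM in young, 0, 1.19 and 0.904 CPM in rapamycin and 0.809 and 0.674 CPM in aged libraries, and fell by 3.93 ± 0.48 (edgeR adjusted p = 0.00279). For both genes all rapamycin libraries lay below both young ones, which the naming rule required. The other falls named by the rule were Car8 (-5.16 ± 0.80), the fatty acid hydroxylase gene Cyp4a14 (-4.38 ± 0.74), the adhesion receptor gene Adgrv1 (-4.04 ± 0.60), Pdzph1 (-3.26 ± 0.38), Heca (-3.17 ± 0.68), the growth factor gene Nrg1 (-3.14 ± 0.70) and the carboxypeptidase gene Cpb1 (-3.13 ± 0.51). Car8 stood at 6.45 CPM in rapamycin 1, near its lower young value of 7.79 CPM, and at 0.149 and 0.452 CPM in rapamycin 2 and 3.

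**Figure D3:**
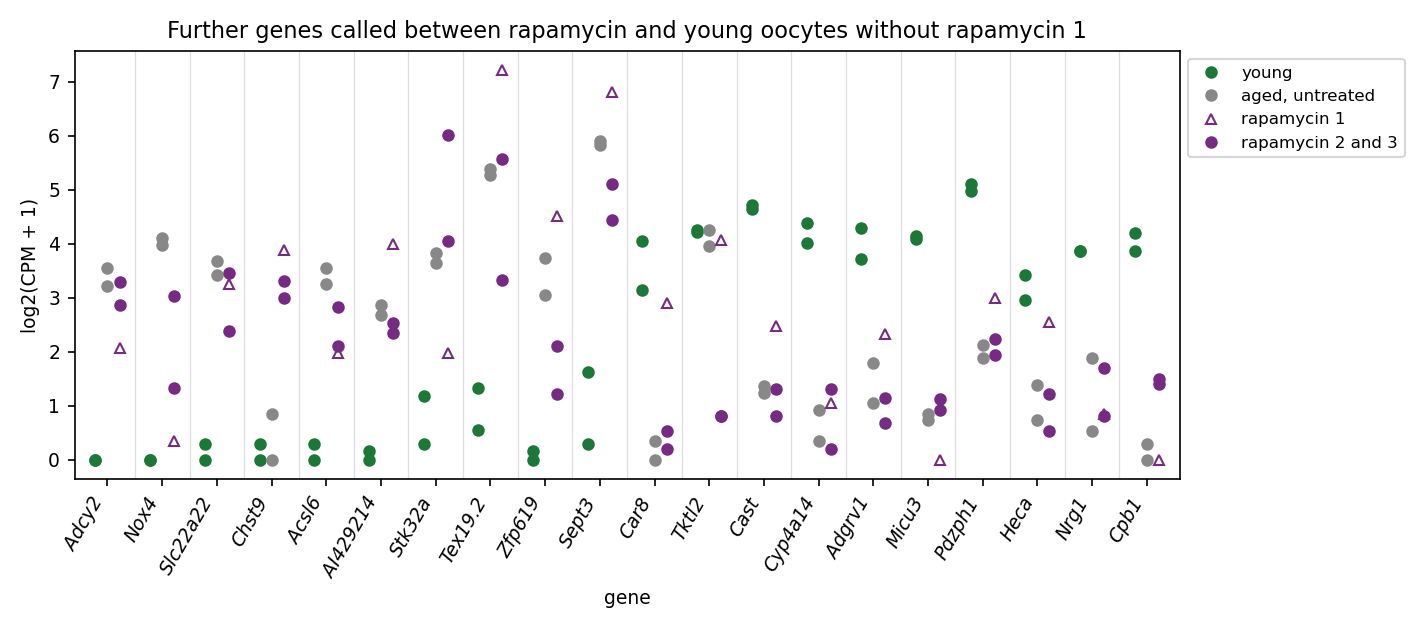
Levels of 20 genes called without rapamycin 1 and not with all libraries, as log2(CPM + 1) on the vertical axis for each gene, with 1 point per library. They are the 10 largest rises and 10 largest falls that passed 3 filters. These were a standard symbol, a mean of at least 2 log2 CPM and no overlap of all 3 rapamycin libraries with young. By this rule young points (green) lie below rapamycin points in the left 10 genes and above them in the right 10. The gene Chst9 has aged points (0.809 and 0 CPM) near the young ones, and Tktl2 has rapamycin 1 (15.9 CPM) near the aged ones.

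The share of mTOR pathway genes that were called was near the 2.97% over all genes tested. Without rapamycin 1, edgeR called 0 of 9 tested subunits of mTOR complexes 1 and 2 with the rapamycin receptor and 0 of 20 mTOR targets, with 0 and 5 at an unadjusted p under 0.05, and DESeq2 called none in either list. Over all 10220 genes tested, 1622 were at an unadjusted p under 0.05. Of 44 upstream regulators and nutrient sensors, edgeR called 1 and DESeq2 3. The gene called was Lamtor3, a subunit of the Ragulator complex that anchors mTOR complex 1 to lysosomes. It had 744 and 642 CPM in young, 298 and 389 CPM in rapamycin 2 and 3, 22.0 CPM in rapamycin 1 and 345 and 279 CPM in aged libraries, and fell by 1.00 ± 0.22 without rapamycin 1 (edgeR adjusted p = 0.0466). All libraries of 48-week-old mice lay below the young ones.

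Fkbp1a, the gene of the rapamycin receptor, had 212 and 170 CPM in young and 672, 241 and 267 CPM in rapamycin libraries, with a log2 difference of 0.42 ± 0.24 without rapamycin 1 (95% interval -0.11 to 0.95; edgeR adjusted p = 0.442). Mtor itself had 26.4 and 29.4 CPM in young, 7.53, 31.6 and 38.1 CPM in rapamycin and 73.0 and 40.5 CPM in aged libraries. Its difference was 0.33 ± 0.33 without rapamycin 1 and -0.11 ± 0.64 with it, so its sign depended on that library. Rptor, the gene of the scaffold Raptor (-0.36 ± 0.61), the S6 kinase gene Rps6kb1 (-0.60 ± 0.28) and Eif4ebp1, the gene of a translation repressor inactivated by mTOR (1.85 ± 0.61), were not called without rapamycin 1. Eif4ebp1 had 1.31 and 1.16 CPM in young and 4.84, 3.57 and 5.27 CPM in rapamycin libraries, with no overlap but few counts.

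Called members were spread thinly over the gene lists, among them genes of lipid, redox and carbohydrate metabolism. Over 23 gene lists, 22 of 977 distinct tested members were called without rapamycin 1 (2.25%), against 2.97% of all genes tested, and they belonged to 12 lists. In the 11 lists with no edgeR call, 42 of 369 members had an unadjusted p under 0.05, against 1622 of all 10220 genes tested. DESeq2 called 6 of the 369. In the lipid droplet and lipid metabolism list, 3 of 35 members rose and none fell. Besides Pnpla3 and Acsl6 this was Fasn, the fatty acid synthase gene (chromosome 11, 120805846 to 120824547), with 2.62 and 6.17 CPM in young, 16.7, 39.9 and 109 CPM in rapamycin and 43.4 and 83.2 CPM in aged libraries, a rise of 4.03 ± 0.60 (edgeR adjusted p = 0.00869). The Fasn libraries of rapamycin and aged oocytes overlapped and were all above young.

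In the antioxidant list 2 of 32 members rose, Gsto2 and the glutaredoxin gene Glrx (1.10 ± 0.24; edgeR adjusted p = 0.0407). Glrx was at 111 and 91.8 CPM in young, 210 and 220 CPM in rapamycin 2 and 3 and 7.26 CPM in rapamycin 1, which lay on the other side of young. In the list of glycolysis and the TCA cycle 1 of 48 members rose and 2 fell. G6pdx, the first enzyme gene of the pentose phosphate pathway, had 112 and 95.3 CPM in young and 217, 275 and 184 CPM in rapamycin libraries, a rise of 1.16 ± 0.26 (edgeR adjusted p = 0.0469). Got1, an aspartate aminotransferase gene, had 76.7 and 52.6 CPM in young, 8.33, 14.7 and 11.5 CPM in rapamycin and 2.70 and 2.92 CPM in aged libraries, and fell by 2.29 ± 0.34 (edgeR adjusted p = 0.00869). The rapamycin libraries of Got1 lay between the aged and the young ones without overlap, and their difference from aged, 2.23, was not called (edgeR adjusted p = 0.181). The second fall in that list was Tktl2.

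Of the list of ER chaperones, unfolded protein response and heat shock, 1 of 41 members was called. Pdia6 (chromosome 12, 17266545 to 17284770), a protein disulfide isomerase gene, had 500 and 459 CPM in young, 8.06, 55.5 and 65.5 CPM in rapamycin and 90.8 and 86.7 CPM in aged libraries, and fell by 2.97 ± 0.23 without rapamycin 1 (edgeR adjusted p = 1.70e-04). All 3 rapamycin libraries were below the aged ones, which were below the young ones. Hspa5, the gene of the ER chaperone BiP, was not called (-1.15 ± 0.35). The recombinase gene Dmc1, of the DNA repair list, had 10.0 and 6.28 CPM in young and 0, 0.744 and 0.301 CPM in rapamycin libraries and fell by 3.88 ± 0.80 (edgeR adjusted p = 0.0332), 1 of 75 members called. In the list of spindle and checkpoint genes 2 of 64 rose, Mtfr2 and the microtubule-binding gene Nusap1. Nusap1 had 134 and 166 CPM in young, 406, 422 and 368 CPM in rapamycin and 154 and 249 CPM in aged libraries, with all rapamycin libraries above all others, and a log2 change of 1.41 ± 0.28 (edgeR adjusted p = 0.0278).

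In the list of oocyte identity and maternal effect genes 2 of 66 members rose and 3 fell. Obox2, an oocyte homeobox gene of a multigene family (chromosome 7, 15388721 to 15398545), had 4847 and 3616 CPM in young, 1926, 1425 and 2109 CPM in rapamycin and 1984 and 2609 CPM in aged libraries, and fell by 1.25 ± 0.25 (edgeR adjusted p = 0.0301). Oog4, also of a multigene family, fell by 1.73 ± 0.24 and Dppa5a by 1.58 ± 0.34, while Tcl1b5 rose by 1.36 ± 0.25. The fifth, Nlrp4f, named after its values were seen, rose by 0.95 ± 0.21. Reads of such families may be split between near-identical copies. Cpsf4l, a paralogue of a polyadenylation factor gene, rose by 1.93 ± 0.26 and the ribosomal protein-like gene Rpl7l1 by 2.54 ± 0.55 without rapamycin 1.

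The cumulus and granulosa list had 1 called member, the aromatase gene Cyp19a1. It had 80.4 and 76.1 CPM in young, 47.4 and 43.1 CPM in aged and 11, 24.6 and 34.5 CPM in rapamycin libraries, and fell by 1.39 ± 0.28 without rapamycin 1 (edgeR adjusted p = 0.0306). All 3 rapamycin libraries were below the aged ones. Other members of the list stood differently. Inha was at 0.872 and 0.931 CPM in young, 2.38 and 3.31 CPM in rapamycin 2 and 3 and 77.2 CPM in rapamycin 1, and Cyp11a1 was at 2.18 and 1.98 CPM in young and 7.26, 4.91 and 3.92 CPM in rapamycin libraries, neither of them called.

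Several lists had a median near that of all genes in rapamycin against young oocytes and lay lower in aged against young oocytes. The median log2 difference over all genes tested was 0.02 for rapamycin and -0.03 for aged oocytes in the fit without rapamycin 1. The 73 nuclear subunits of oxidative phosphorylation had a median of -0.10 for rapamycin and -0.67 for aged oocytes. The 37 proteasome subunits stood at -0.13 and -0.63, and the 69 mitochondrial ribosomal proteins at 0.02 and -0.59. In edgeR 0 members of these 3 lists were called for rapamycin, with 2, 2 and 5 at an unadjusted p under 0.05, and DESeq2 called 0, 0 and 1.

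The 79 cytosolic ribosomal proteins had a median of 0.18 without rapamycin 1, 0.75 with it, and -0.67 in aged oocytes. Their mean level relative to all libraries, in log2(CPM + 1), was 0.07 and -0.09 in young, -0.87 and -0.36 in aged, 0.13 and 0.16 in rapamycin 2 and 3 and 0.96 in rapamycin 1. Rapamycin 2 and 3 were thus just above the young libraries, and the size of the list's difference rested on rapamycin 1. Antioxidant genes stood at 0.25 for rapamycin and -0.37 for aged oocytes, autophagy and lysosome genes at -0.17 and 0.12, and subunits of the mTOR complexes at 0.08 and 0.55. Among autophagy and lysosome genes 0 of 53 were called in edgeR and DESeq2, with 9 at an unadjusted p under 0.05. Since rapamycin and aged values share the young libraries, the medians are given side by side as a description. Many of the rapamycin medians moved when a young library was left out, as given in the closing section.

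**Figure D4:**
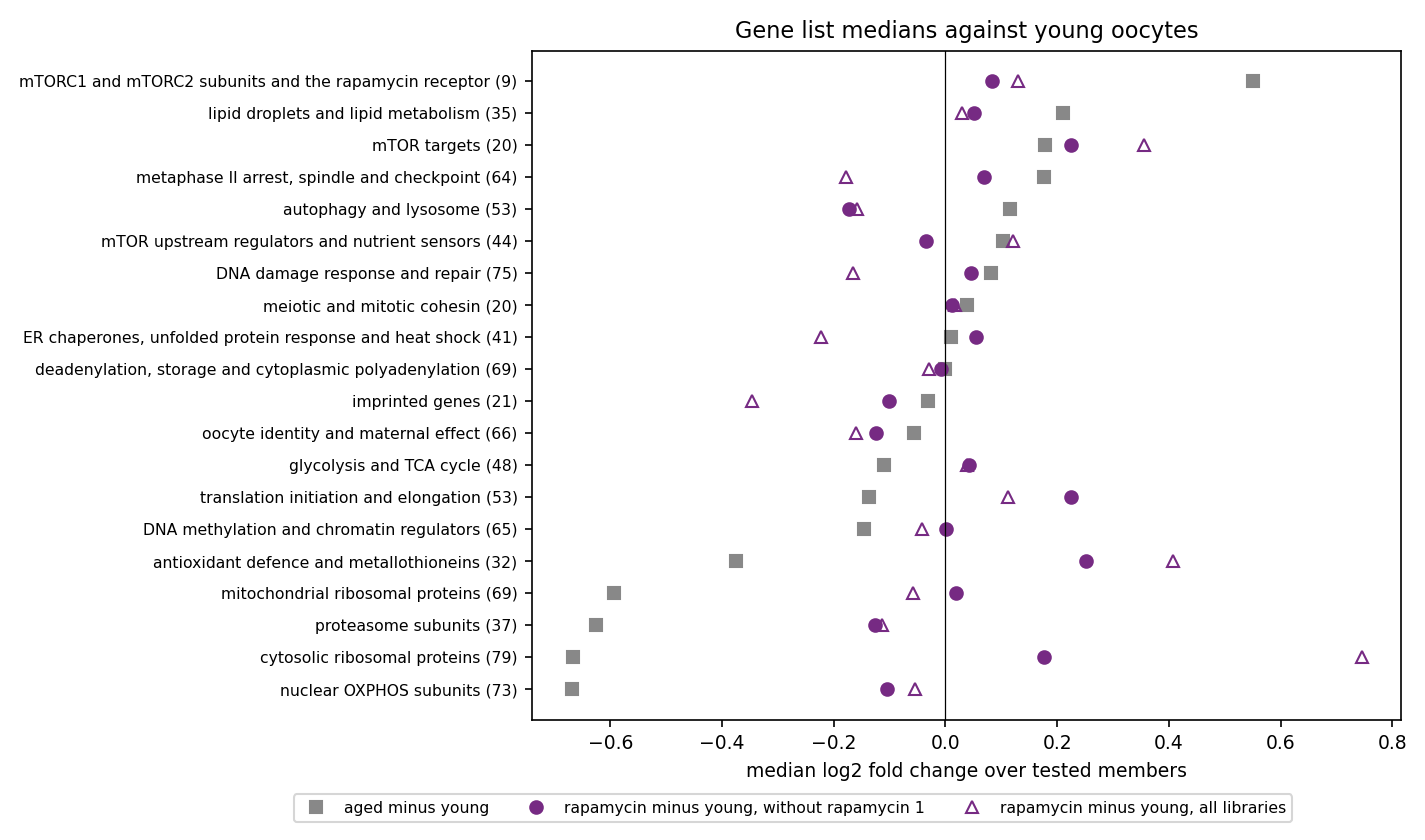
Median log2 fold change over the tested members of each gene list (number in brackets) with at least 9 tested members, for aged minus young (grey squares) and rapamycin minus young without rapamycin 1 (filled points) or with all libraries (open triangles). Filled points lie between -0.17 and 0.25, whereas grey squares reach from -0.67 to 0.55, and the triangle of cytosolic ribosomal proteins (0.75) lies far from its filled point (0.18).

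Set directly against aged oocytes without rapamycin 1, the rapamycin libraries differed in few genes in edgeR. Of 10220 genes, 6 were called (0.0587%), 3 higher (0.0294%) and 3 lower (0.0294%), 1561 had an unadjusted p under 0.05, and DESeq2 called 170 of the 5068 genes to which it gave an adjusted p. Of the 304 genes called against young, 248 were within 1 log2 unit of aged oocytes and 1, Tktl2, was called against them. At an unadjusted p under 0.05 in edgeR, 67 of the 304 differed from aged oocytes. The share of all genes within 1 log2 unit of aged oocytes was not computed. For 63 of the 304 the whole 95% interval of the difference from aged lay within 1 log2 unit, and its median was ± 0.89.

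For the other 5 of the 6 genes, rapamycin 2 and 3 were nearer to the young than to the aged libraries. Gmnn, which encodes geminin, an inhibitor of replication licensing, had 360 and 348 CPM in young, 67.9 and 79.1 CPM in aged, 294 and 251 CPM in rapamycin 2 and 3 and 665 CPM in rapamycin 1. Rapamycin 1 was thus the highest library, and all rapamycin libraries were above the aged ones. Against aged oocytes Gmnn rose by 1.91 without rapamycin 1 (edgeR adjusted p = 0.0196), and against young it stood at -0.37 ± 0.22 (95% interval -0.85 to 0.12). Mtus2, a microtubule-associated gene, had 325 and 332 CPM in young, 25.6 and 37.1 CPM in aged and 89.2, 193 and 293 CPM in rapamycin libraries, 2.97 above aged (edgeR adjusted p = 0.00853) and -0.42 ± 0.28 from young (-1.04 to 0.20). Its rapamycin libraries were above both aged and below both young ones.

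Sparc (chromosome 11, 55394500 to 55423183), a matricellular glycoprotein gene, had 6.97 and 5.58 CPM in young, 0.809 and 0.899 CPM in aged and 14.5, 17.9 and 13.9 CPM in rapamycin libraries. All rapamycin libraries were above both young ones, yet the difference from young, 1.36 ± 0.40, was not called (edgeR adjusted p = 0.121). Stromal collagen genes stood the same way, Col1a1 at 0 and 1.51 CPM in young, 0.270 and 0 CPM in aged and 13.4, 4.32 and 4.37 CPM in rapamycin libraries, with Col1a2 and Col3a1 also above the young libraries in all 3 and not called. The list of oviduct and stromal markers had a median of 0.93 over 8 tested members for rapamycin against young without rapamycin 1. Of these 8, 4 lay above both young libraries in all 3 rapamycin libraries and 1 below. The summed level of the list of 17 went another way, at 243 and 267 CPM in young, 635 and 362 CPM in aged and 91.7, 263 and 345 CPM in rapamycin libraries. The part of other cells in the level of Sparc was not tested.

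Slc14a1, a urea transporter gene, had 27.5 and 49.0 CPM in aged oocytes and 0 counts in all 5 young and rapamycin libraries. Kcng2, a potassium channel subunit gene, had 234 and 84.7 CPM in aged, 2.62 and 1.05 CPM in young, 1.79 and 1.81 CPM in rapamycin 2 and 3 and 18.3 CPM in rapamycin 1. Both were called lower than in aged oocytes (edgeR adjusted p = 0.00853 each without rapamycin 1). Slc14a1 separated the aged libraries from all others, and Kcng2 did so with rapamycin 1 between the groups. The difference of Kcng2 from young, 0.10 ± 0.68, has an interval of -1.41 to 1.62 and so leaves room for a change of over 1 log2 unit in either direction.

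**Figure D5:**
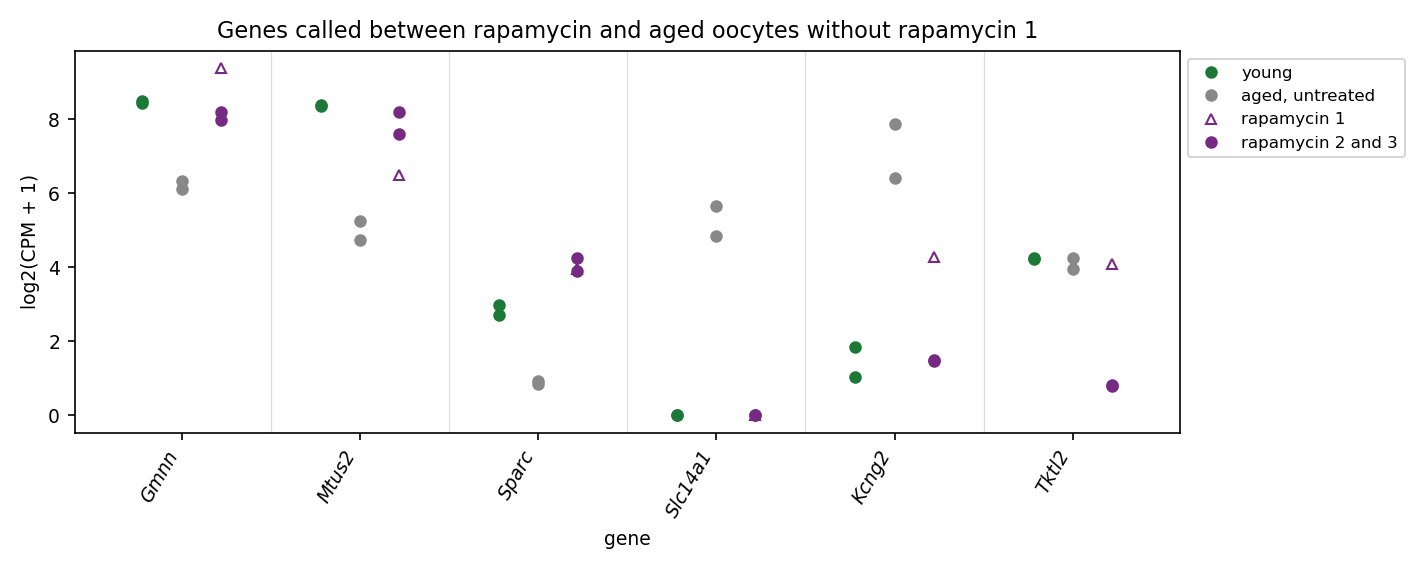
Levels of the 6 genes called between rapamycin and aged oocytes without rapamycin 1, as log2(CPM + 1) on the vertical axis for each gene, with 1 point per library. For Gmnn, Mtus2, Sparc, Slc14a1 and Kcng2 the filled rapamycin points are nearer to the young than to the aged points, while for Tktl2 they lie below both (0.744 and 0.753 CPM against 14.6 to 18.0 CPM).

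The number of calls rested on single libraries, while the called genes kept their direction. They were called on these same libraries, and for all 43 the rapamycin and young libraries did not overlap. A turned sign was therefore unlikely from the start, and the kept direction is no independent support. With all libraries the count of 43 was 0 without young 1 and 2 without young 2, and with rapamycin 1 left out the count of 304 was 48 and 45 without them. All 43 genes had the same sign and an unadjusted p under 0.05 in every alternative in which they were tested.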

How the data were processed

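Poly(A) RNA of 7 pools of metaphase II oocytes was sequenced. The authors deposited 1 table of raw read counts per gene and library. STAR, HTSeq and the build mm10 are named per the submitters' processing notes. Tool versions, annotation and strandedness were not given in the sources used here. Reads of overlapping or antisense genes were thus treated as inseparable. Each table lists 24491 gene symbols and 5 summary rows, which were left out of totals and tests. Relative to the genes and the 5 summary rows together, reads outside genes made up 6.09 to 9.32%, ambiguous reads 1.26 to 1.48% and reads with several positions 10.0 to 15.9%.

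Groups followed the sample titles. The 3 oocyte groups were fitted together, with and without rapamycin 1, in edgeR 4.0.16 (R 4.3.3, limma 3.58.1): filterByExpr, trimmed mean of M values, quasi-likelihood F-test and Benjamini-Hochberg adjustment over every tested gene at 0.05. Log2 fold changes carry standard errors. Where a group had 0 counts, the fold was taken against 3 counts over that group. Where it had 1 to 3, the ratio has an exact 95% counting interval. Amplified reads are not independent molecules. DESeq2 1.42.0 and the other alternatives of the closing section were run on the same counts, the code was tested on simulated data, and figures were drawn with matplotlib 3.10.9. Replicate pairs differed by more than counting noise, with a chi-square per degree of freedom of 18.1 to 191.

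The comparison, the gene lists and the markers were chosen with earlier results of these data known. Named genes are those with a standard symbol called with all libraries (per-library values for the 8 largest rises and falls averaging 2 log2 CPM or more and with no overlap between groups), the 10 largest further rises and falls without rapamycin 1, from each list at most 3 members of smallest p, 5 mTOR pathway genes, 4 oocyte genes and all genes called against aged oocytes without rapamycin 1. The further rises and falls had to meet the same symbol, level and overlap rules, with overlap judged over all 3 rapamycin libraries. Genes matched GENCODE M21 on GRCm38, the assembly of mm10, by symbol for 10032 of 10327 tested (97.14%). Hippocampus libraries were not used.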

Additional observations from a re-analysis of the deposited data

How the results depend on the processing

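Age, rapamycin and hormone dose cannot be told apart against young oocytes, groups hold 2 or 3 pools, and about 10 oocytes per pool limit low genes. With all libraries, the count of 43 became 179 with no low-count filter, 14 with only the rapamycin and young libraries and 243 in DESeq2. Leaving out 1 library gave 0 to 304, the lowest without young 1 (356 at an unadjusted p under 0.05) and the highest without rapamycin 1. It was 2 without young 2, 15 without aged 1 or 2, 12 without rapamycin 2 and 8 without rapamycin 3. Without rapamycin 1, the count of 304 became 793, 521 and 520 under the same 3 settings, and 45 to 527 when a further library was left out, 48 without young 1, 45 without young 2, 527 and 522 without aged 1 and 2, and 140 and 168 without rapamycin 2 and 3. Other scaling, a filter of 10 CPM, robust dispersions and thinning to the smallest total kept both counts within 1.5 times, at 34 to 41 and 238 to 342. All 304 genes kept their sign wherever tested, which their selection from these same libraries favoured. The split of calls moved with only the rapamycin and young libraries, to 3 higher and 11 lower of 14. Of 46 list medians against young over both fits, 21 moved without young 1, 20 without young 2 and 18 each without rapamycin 2 or 3. With the replicate block 19 moved, and with the filter of 10 CPM 16. A move is a shift of at least the standard deviation of the list's level among the rapamycin libraries.

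Deviations of same-numbered libraries from their group means correlated at -0.10 to 0.01. In a group of 2 libraries the deviations mirror each other, so these values cannot tell whether same-numbered libraries were handled together. The labels do not say so either. With the replicate number as a block, edgeR called 0 genes with all libraries (819 at an unadjusted p under 0.05) and 301 without rapamycin 1, 170 of them among the 304.

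Mtor (-0.11 with all libraries) turned to 0.02 without young 2 and 0.33 without rapamycin 1, in a range of -0.49 to 0.33 over libraries left out. In the fit without rapamycin 1, Kcng2 (0.10) turned to -0.49 without young 2, in a range of -0.49 to 0.79. Rptor (-0.36) turned to 0.01 without young 2 and 0.36 without rapamycin 2, in a range of -1.76 to 0.36. None of these was called, and the cause was not tested.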

Other observations

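Some groups of genes called between rapamycin and young oocytes without rapamycin 1 were noticed after their values were seen. The NLR family gene Nlrp4e and its paralogue Nlrp4g, annotated as a transcribed unprocessed pseudogene, are expressed in oocytes. They rose by 1.36 ± 0.26 and 1.96 ± 0.21 on the log2 scale (edgeR adjusted p = 0.0264 and 0.00135). Reads of such paralogues may be split between copies. Nlrp4g had 138 and 111 CPM in young, 724, 482 and 474 CPM in rapamycin and 632 and 661 CPM in aged libraries. Of genes of the circadian clock, Bhlhe41 fell by 1.31 ± 0.25 and Per3 by 1.66 ± 0.32 (edgeR adjusted p = 0.0245 and 0.0264). Per3 had 70.8 and 50.8 CPM in young and 21.1 and 17.0 CPM in rapamycin 2 and 3, but 58.6 CPM in rapamycin 1, between the young libraries. The developmental transcription factor genes Otx1 and Gata6 rose by 2.43 ± 0.46 and 2.64 ± 0.44 (edgeR adjusted p = 0.0241 and 0.0144). Gata6 had 1.31 and 2.21 CPM in young, 3.76, 10.6 and 12.2 CPM in rapamycin and 14 and 14.4 CPM in aged libraries.

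Of 292 called genes placed on GRCm38, 30 formed 15 pairs within 100 kb of each other, and 7 of the pairs changed in the same direction. The number of such pairs among all tested genes was not computed, so the count is a description alone. Fasn and Ccdc57, whose gene bodies lie 1982 bp apart on the same strand, both rose (4.03 and 2.56), as did Fnbp4 and Agbl2 (1.08 and 5.76), 1706 bp apart on the same strand. Iffo2 and Aldh4a1, 2484 bp apart on the same strand, changed in opposite directions (-5.04 and 1.97). Kcnh1 and Hhat, which overlap on opposite strands, both fell (by 2.28 and by 1.56), and their reads may not have been told apart. Of 139 tested genes annotated as lincRNA, 13 were called (9.35%), against 267 of 9730 protein-coding genes (2.74%). By chromosome, the share called lay between 1.46% (chromosome 5) and 4.62% (chromosome 13).

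In RefSeq promoters, from 250 bases before to 50 after the first start, the letters TATAAA on either strand were present in 1.96% of 102 genes called higher, 12.4% of 113 called lower and 6.95% of the 8015 tested genes in the table. In the same order, the NOBOX element was in 0.98%, 10.6% and 5.15%, the E-box in 70.6%, 66.4% and 63.7% and the cyclic AMP response element in 3.92%, 4.42% and 3.51%. Median GC content was 59% for genes called higher, 57.7% for genes called lower and 61% for all tested. These shares are a description of the window and were not tested.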
